A study of Mus musculus with 6 samples.

Results

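The beta-catenin feedback target genes are a set of 10 genes that canonical Wnt signalling switches on in many cell types and whose products mostly act back on the pathway. They are Axin2, Nkd1, Nkd2, Rnf43, Znrf3, Lef1, Tcf7, Apcdd1, Notum and Sp5, and they were taken by name from the 43430 genes of the deposited count table. All 10 had a row in the table, and 7 of the 10 passed the filter on low counts and entered the test, with 13005 genes in all. The counts are from RNA-seq of lung fibroblasts sorted by flow cytometry for PDGFRA, a growth factor receptor of most lung fibroblasts, from male C57BL/6J mice aged 9 to 11 weeks. The room air group had 9 mice and the hypercapnia group had 9 mice kept in 10% CO2 for 10 days at normal oxygen, and no group carried a transgene or a deletion by the labels. The cells of 3 mice were pooled per library, so each group had 3 libraries, called M1, M2 and M3 in room air and M4, M5 and M6 in hypercapnia, and the spread between libraries is that between pools.

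In canonical signalling, a Wnt ligand that binds a Frizzled receptor and its LRP co-receptor stops the destruction complex from degrading beta-catenin, which then enters the nucleus and activates genes together with TCF/LEF proteins. Axin2 and the Naked cuticle proteins Nkd1 and Nkd2 dampen the signal inside the cell, Znrf3 and Rnf43 remove the receptors from the surface, and Notum and Apcdd1 act on the ligand and its receptors outside. In the adult lung, Axin2 is widely used to mark Wnt-responding cells, among them fibroblasts near alveolar type 2 cells. The title of the series names Wnt production by fibroblasts under hypercapnia, and these genes ask the neighbouring question of how the fibroblasts' own Wnt targets stood in the same libraries.

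Several members lie on the same chromosome. Of the 10 genes, 5 (Axin2, Rnf43, Znrf3, Tcf7 and Notum) are on chromosome 11, and all of these but Rnf43 were tested. Chromosome 11 holds 8.37% of all tested genes. This was noticed after the positions were looked up and was not tested. On the build mm10, Axin2 (ENSMUSG00000000142) runs from 108920349 to 108950783 on the plus strand of chromosome 11. Znrf3 (ENSMUSG00000041961) runs from 5276324 to 5444847, Tcf7 (ENSMUSG00000000782) from 52252371 to 52283014 and Notum (ENSMUSG00000042988) from 120653788 to 120661175 on the minus strand of the same chromosome. Nkd1 (ENSMUSG00000031661) lies on chromosome 8 from 88521354 to 88594884, and Nkd2 (ENSMUSG00000021567) on chromosome 13 from 73818534 to 73847631.

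Promoters are shown for Axin2, the member with the highest level, and Sp5, the member with the lowest. The matches to letters that TCF/LEF proteins are known to bind also entered this choice. The windows reach from 250 bases before to 50 after the start site that RefSeq gives on GRCm38.p6, both on the plus strand, at chr11:108920099-108920398 and chr2:70474673-70474972. Capitals mark matches on either strand to any of 4 motifs, which are CTTTGAA or its variant CTTTGAT, then CTTTGTA or, last, its variant CTTTGTT.
Axin2: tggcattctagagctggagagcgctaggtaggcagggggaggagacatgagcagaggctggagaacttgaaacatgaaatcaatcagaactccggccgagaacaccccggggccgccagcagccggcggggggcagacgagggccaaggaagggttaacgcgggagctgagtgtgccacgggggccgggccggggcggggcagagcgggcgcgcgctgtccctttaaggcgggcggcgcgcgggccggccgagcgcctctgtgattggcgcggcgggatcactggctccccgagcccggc
Sp5: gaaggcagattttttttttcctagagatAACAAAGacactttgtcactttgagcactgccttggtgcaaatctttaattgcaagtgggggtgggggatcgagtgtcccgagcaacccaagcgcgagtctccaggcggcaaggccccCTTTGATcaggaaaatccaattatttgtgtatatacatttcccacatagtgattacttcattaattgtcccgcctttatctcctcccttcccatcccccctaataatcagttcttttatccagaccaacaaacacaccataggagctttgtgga

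The Sp5 window held 2 matches and the Axin2 window held none of these letters. The first match in Sp5 reads AACAAAG, the reverse complement of CTTTGTT, and the second reads CTTTGAT. Of all 32851 RefSeq windows of this length, 16.9% held at least 1 match and 1.94% held at least 2. RefSeq windows were at hand for 7 of the 10 members, 12 windows in all, and 2 of the 12 held a match, the other being the window of a downstream start site of Lef1. Most member windows thus held no match, as that of Axin2 did, and sequence outside the windows was not searched. A match is a run of letters and not a measured binding site.

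The set split into 7 genes that the fibroblast libraries expressed at a clear level and 3 that they barely expressed. Different genes were compared in CPM per kilobase of exon, where CPM is the count scaled to a common library size with TMM factors. The length is that of the exons of all annotated transcripts merged. Which transcripts the cells expressed was not measured, so the order and the shares given below depend on that length. Axin2 stood highest in room air at 17.9 ± 0.523 CPM per kilobase (SD, n = 3). Notum followed at 16.6 ± 0.916, Nkd1 at 15.0 ± 3.92, Znrf3 at 10.9 ± 0.932, Tcf7 at 6.99 ± 1.84, Nkd2 at 5.09 ± 1.17 and Apcdd1 at 4.23 ± 0.221 CPM per kilobase. Among these 7, neighbours in the order overlapped between room air libraries, except that Znrf3 lay wholly above Tcf7. Lef1, Rnf43 and Sp5 came last, at 0.0924, 0.0600 and 0 CPM per kilobase, with every Lef1 library below every Apcdd1 library.

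In hypercapnia Axin2 was again highest at 18.0 ± 1.49 CPM per kilobase (SD, n = 3) and the lowest 5 places of the order were the same. Nkd1 at 17.1 ± 3.08 stood before Notum at 15.6 ± 0.906, and Tcf7 at 9.15 ± 0.666 stood before Znrf3 at 8.70 ± 0.841 CPM per kilobase. In both exchanges the neighbours overlapped between hypercapnia libraries, although Znrf3 had lain wholly above Tcf7 in room air. Notum lay wholly above Tcf7 there, Znrf3 above Nkd2 and Nkd2 above Apcdd1.

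**Figure D1:**
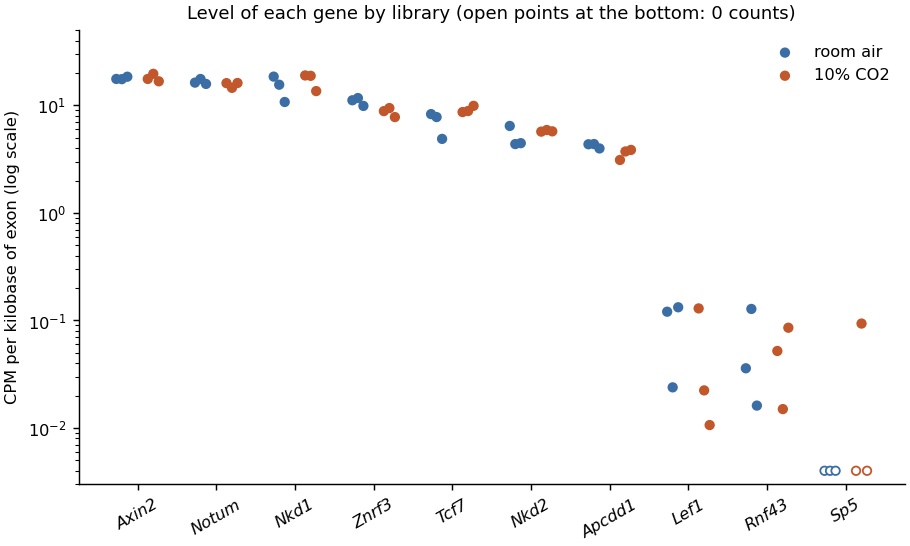
Level of each of the 10 genes in each library, in CPM per kilobase of exon on a log scale, with room air in blue and 10% CO2 in orange, and open points at the bottom for libraries with 0 counts. Axin2 to Apcdd1 lie between 3.11 and 19.7 CPM per kilobase in every library, and Lef1, Rnf43 and Sp5 lie at or below 0.133.

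No member changed by the test over all genes. By edgeR's quasi-likelihood test with Benjamini-Hochberg adjustment, 0 of the 7 tested members had an adjusted p under 0.05, where 1.22% of all 13005 tested genes had one. At an unadjusted p under 0.05 there was 1 member, Znrf3, where 12.0% of all tested genes fell. DESeq2 and limma-voom also called 0 members. In 3 of the 7 members the 2 groups did not overlap, Znrf3 and Apcdd1 lower and Tcf7 higher in hypercapnia, where 18.0% of all tested genes did not overlap. The median log2 fold change of the 7 members was 0.01, as it was over all tested genes, and the median of its absolute size was 0.20 against 0.18 over all genes. Of the 7, 4 were positive and 3 negative.

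**Figure D2:**
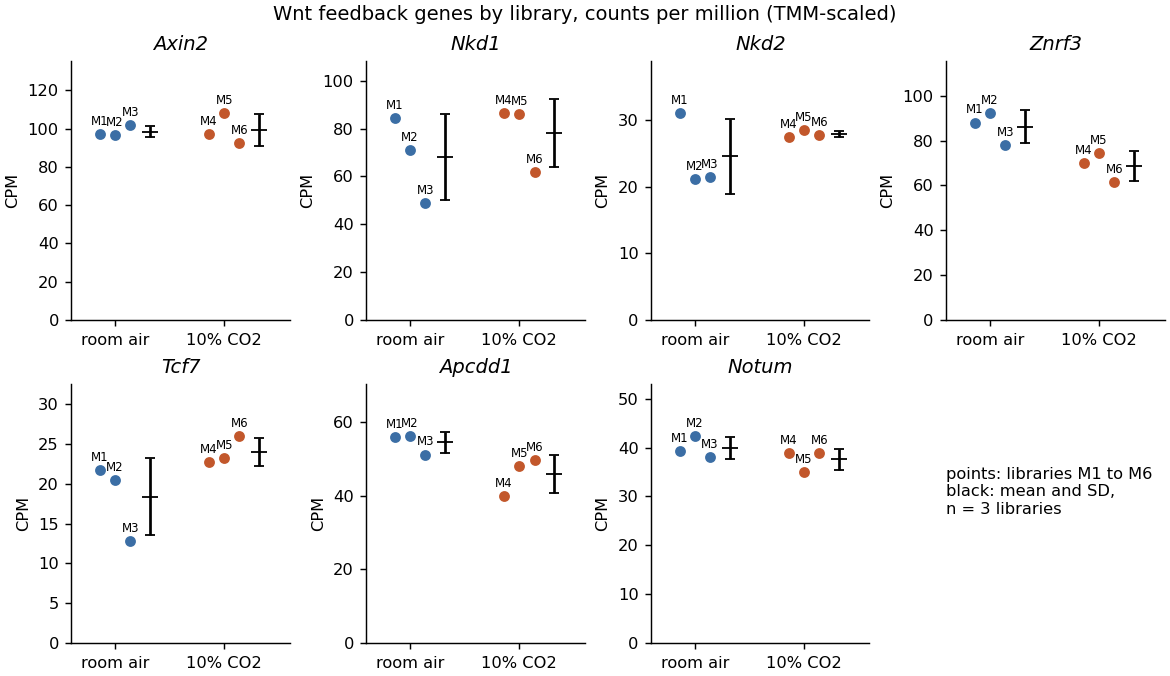
CPM of the 7 tested genes in each library (points, M1 to M6), with the mean and SD of the 3 libraries of each group in black. Znrf3 and Apcdd1 lie lower and Tcf7 higher in all 10% CO2 libraries, and the groups of Axin2, Nkd1, Nkd2 and Notum overlap.

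Inside the cell, Axin2, the scaffold protein of the destruction complex that the pathway induces, had the smallest log2 fold change of the tested members. Its room air libraries M1 to M3 had 97.0, 96.6 and 102 CPM, and its hypercapnia libraries M4 to M6 had 97.0, 108 and 92.3 CPM. The lowest and the highest value both came from hypercapnia, and the room air values lay between them. The edgeR log2 fold change was 0.01 ± 0.11 (SE), with an adjusted p of 0.985. Its 95% interval, which is not adjusted over all genes, ran from 0.852-fold to 1.19-fold. That interval is not a limit of detection. Znrf3 at 0.796-fold and Tcf7 at 1.31-fold lay outside it and did not pass either (edgeR adjusted p = 0.287 and 0.523). Only 3.11% of the tested genes had a smaller absolute log2 fold change than Axin2. Exons of Axin2 share 3.80% of their bases with an antisense gene, Gm11670, that had at most 3 counts in a library.

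Axin1, the paralog that is present without Wnt induction, served as a comparison for Axin2. Per kilobase the Axin2 to Axin1 ratio was 1.73 ± 0.370 in room air and 1.73 ± 0.203 in hypercapnia (SD, n = 3). It ran from 1.31 to 2.01 within room air, a range that held all 3 hypercapnia libraries. Axin1 itself stood at 40.9 ± 9.22 and 40.4 ± 6.29 CPM, with a log2 fold change of -0.02.

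The 3 tested genes with the profile most like that of Axin2 over the 6 libraries were Pml, Tsc22d4 and Mapk8ip1. Among 10752 genes whose mean reached 5 CPM, the root mean square difference of their centred log2 CPM from that of Axin2 was 0.0193, 0.0268 and 0.0268. The centred values of Axin2 had a root mean square of 0.0723, so all 4 genes were nearly flat, and likeness here is between small deviations.

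Nkd1 and Nkd2 bind Dishevelled, the protein that relays the signal from the receptor, and they varied more between room air libraries than Axin2 did. Nkd1 had 84.4, 71.0 and 49.0 CPM in the room air libraries, against 86.6, 85.9 and 61.9 CPM in the hypercapnia libraries. M3 was the lowest room air library and M6 the lowest hypercapnia library, and the groups overlapped. The log2 fold change of Nkd1 was 0.20 ± 0.20 (SE, edgeR adjusted p = 0.781), with an interval from 0.847-fold to 1.55-fold, and it was 0.38 without M1 and 0.0053 without M3.

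Nkd2 had 31.1, 21.1 and 21.5 CPM in the room air libraries, against 27.5, 28.5 and 27.7 CPM in the hypercapnia libraries. The hypercapnia libraries lay close together, between M1 above them and M2 and M3 below. Its log2 fold change was 0.19 ± 0.18 (SE, edgeR adjusted p = 0.777), with an interval from 0.860-fold to 1.51-fold, and it was 0.39 without M1 and 0.086 without M2. Per kilobase, Nkd1 made up 74.3% ± 3.69 of the Naked cuticle transcripts in room air and 74.5% ± 3.61 in hypercapnia (SD, n = 3), so the balance of the paralogs differed by less than its spread.

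At the receptor, Znrf3 was nearly the sole ligase of its pair. Znrf3 and Rnf43 are transmembrane ubiquitin ligases that mark Frizzled and LRP6 for removal and are themselves cleared when R-spondins bind. Znrf3 had 88.1, 92.4 and 78.1 CPM in the room air libraries, against 69.8, 74.6 and 61.5 CPM in the hypercapnia libraries. Every hypercapnia library lay below every room air library, with the gap between M3 and M5 the narrowest. The log2 fold change was -0.33 ± 0.12 (SE), a fold of 0.796 with an interval from 0.661 to 0.960. Znrf3 did not pass over all genes, with an edgeR adjusted p of 0.287. It was the member with the smallest p and ranked 965 among all tested genes.

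Rnf43 had 2, 8 and 1 counts in room air and 3, 1 and 6 counts in hypercapnia, and it did not enter the test. Its group sums of 11 and 10 counts gave a ratio of 0.842 with an exact 95% Poisson interval from 0.321 to 2.18, which covers counting error only. Per kilobase, Znrf3 supplied between 98.9% and 99.8% of the pair's transcripts in every library.

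The genes with the profile most like that of Znrf3 were Stag1, Sec24d and Sp3, with root mean square differences of 0.0295, 0.0392 and 0.0425 log2 CPM against 0.197 for the deviations of Znrf3 itself. Stag1 encodes a cohesin subunit, Sec24d a coat protein of vesicles leaving the endoplasmic reticulum and Sp3 a transcription factor. Their own log2 fold changes were -0.30, -0.31 and -0.26, with edgeR adjusted p of 0.355, 0.304 and 0.419.

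Of the transcription factors, Tcf7 was measured and Lef1 and Sp5 were close to the limit of detection. TCF1, the product of Tcf7, and LEF1 carry beta-catenin to DNA, and Sp5 is a zinc finger factor that is a direct target in embryos. Tcf7 had 21.8, 20.5 and 12.8 CPM in the room air libraries, against 22.8, 23.3 and 26.0 CPM in the hypercapnia libraries. The groups did not overlap, with M1 and M4 side by side and M3 far below the rest. The log2 fold change was 0.39 ± 0.21 (SE, edgeR adjusted p = 0.523), with an interval from 0.944-fold to 1.82-fold, and without M3 it was 0.18 ± 0.19 (adjusted p = 0.748).

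Lef1 had 9, 2 and 11 counts in room air and 10, 2 and 1 counts in hypercapnia. M1, M3 and M4 held most of its counts and M2, M5 and M6 held 1 or 2 each, a pattern that crossed the groups. The sums of 22 and 13 counts gave a ratio of 0.547 with an exact 95% Poisson interval from 0.253 to 1.135 for counting error only. Exons of Lef1 share 13.7% of their bases with an antisense gene model, Gm43352, which had no row in the deposited count table.

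Sp5 had 2 counts, both in M5, and 0 in the other 5 libraries. At this depth 3 counts, the most that a count of 0 leaves plausible, correspond to between 0.281 and 0.353 CPM in a library, so Sp5 was not detectable above that level in those libraries.

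Among the TCF/LEF genes, Tcf7l1 was the most abundant in every library. Tcf7l1 encodes TCF3, which in many cells acts mainly as a repressor of Wnt targets, and its mean was 63.9 ± 3.59 CPM under room air, against 51.5 ± 8.64 under hypercapnia (SD, n = 3), with a log2 fold change of -0.31 ± 0.14 (edgeR adjusted p = 0.415). Tcf7l2, which encodes TCF4, stood at 24.8 ± 4.36 and 28.6 ± 3.79 CPM (0.21 ± 0.18). Per kilobase, Tcf7 made up 30.3%, 27.5% and 21.3% of the 4 TCF/LEF genes together in M1 to M3, against 35.0%, 31.6% and 41.5% in M4 to M6. The share of Tcf7l1 was 60.1%, 60.4% and 66.9% in room air and 52.1%, 55.0% and 46.2% in hypercapnia. That of Tcf7l2 was 9.16%, 12.0% and 11.2% in room air and 12.4%, 13.4% and 12.3% in hypercapnia. None of these shares overlapped between the groups. In CPM, however, the groups overlapped for Tcf7l1 and for Tcf7l2, and of these genes only Tcf7 did not overlap. The 18.0% of all tested genes that did not overlap is a rate for the CPM of single genes and not for shares. The share of Lef1 was at most 0.579% in all libraries. All these shares are parts of 1 whole and are not independent, and they were not tested.

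**Figure D3:**
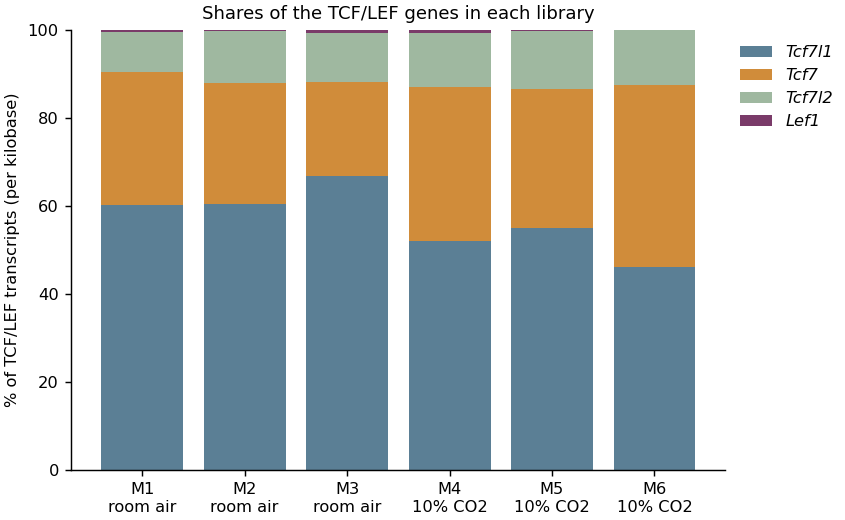
Share of each TCF/LEF gene in the 4 together, in percent per kilobase of exon, stacked for each library. Tcf7 takes up at least 31.6% of the bar in the libraries of 10% CO2 and at most 30.3% in room air, Tcf7l1 is the largest part everywhere, and Lef1 is barely visible.

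Outside the cell, Apcdd1 and Notum were both measured and neither passed. Notum is a secreted enzyme that removes the lipid a Wnt ligand needs to bind its receptor, and Apcdd1 is a membrane protein that inhibits Wnt signalling at the surface. Apcdd1 had 56.1, 56.3 and 51.3 CPM in the room air libraries, against 40.0, 48.0 and 49.7 CPM in the hypercapnia libraries. All hypercapnia libraries were lower, M6 by little and M4 by the most. The log2 fold change was -0.25 ± 0.13 (SE, edgeR adjusted p = 0.506), with an interval from 0.689-fold to 1.03-fold.

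Notum had 39.2, 42.4 and 38.1 CPM in the room air libraries, against 38.8, 35.1 and 38.9 CPM in the hypercapnia libraries. The groups overlapped and lay close together, with a log2 fold change of -0.09 ± 0.13 (SE, edgeR adjusted p = 0.875) and an interval from 0.769-fold to 1.15-fold. Exons of Notum share 38.1% of their bases with antisense genes, Notumos and Myadml2os. Notumos had between 20 and 70 counts in a library and Notum between 333 and 416. The strand setting of the counting is not given in the sources used here, so reads from the shared bases cannot be assigned to either gene.

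The remaining genes of the pathway gave the setting for these members. Of 16 measured genes of the destruction complex, beta-catenin itself and the Dishevelled proteins, 0 passed by edgeR, with 1 at an unadjusted p under 0.05, and their median log2 fold change was 0.01. Ctnnb1, the gene of beta-catenin, had 302 ± 46.2 CPM under room air, against 312 ± 30.8 under hypercapnia (SD, n = 3; log2 fold change 0.05 ± 0.14). Amer1, which helps to hold the complex at the membrane, had the smallest p of them, with a log2 fold change of 0.57 ± 0.16 and an adjusted p of 0.150. Its hypercapnia libraries, at 26.2, 30.9 and 27.5 CPM, all lay above its room air libraries, at 17.5, 18.8 and 20.8 CPM. Apc2, Dvl2 and Dvl1 followed with log2 fold changes of 0.40, 0.24 and -0.19.

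Of 17 measured TCF partners and corepressors, 0 passed by edgeR, with 1 at an unadjusted p under 0.05, and the median was -0.01. After Tcf7l1, the smallest p belonged to Pygo1 (-0.47 ± 0.22) and Bcl9l (-0.31 ± 0.15), coactivators that bind beta-catenin directly or through a partner, and to the corepressor Tle1 (0.36 ± 0.17). In these 3 of the 17 genes the 2 groups did not overlap, where 18.0% of all tested genes did not, and the edgeR adjusted p lay between 0.434 and 0.461. Without M6 the log2 fold change was -0.25 for Pygo1 and -0.15 for Bcl9l, and for Tle1 it was 0.19 without M3 and 0.03 with the level of endothelial markers as a covariate.

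Among other genes known as canonical Wnt targets, Tnfrsf19 fell and Ccn4 rose. Of 21 such genes 13 were tested, 1 of them higher and 1 lower by edgeR, and 11 did not pass. Of all tested genes 0.523% were called higher and 0.700% lower. The list was chosen with earlier results of these data known, so its calls are not independent of that choice. Tnfrsf19, a receptor of the tumour necrosis factor family also called Troy, had 331, 353 and 303 CPM in the room air libraries, against 202, 193 and 184 CPM in the hypercapnia libraries. Every hypercapnia library lay below every room air library, with a log2 fold change of -0.77 ± 0.11 (SE, edgeR adjusted p = 0.00974). Tnfrsf19 (ENSMUSG00000060548) lies on chromosome 14 from 60963875 to 61046490. Ccn4, the matricellular protein first described as WISP1, had 16.7, 21.0 and 11.9 CPM in the room air libraries, against 41.1, 42.4 and 52.9 CPM in the hypercapnia libraries (1.46 ± 0.21, edgeR adjusted p = 0.0104). The calls of both genes were lost without M5 (adjusted p = 0.0742 for Tnfrsf19 and 0.0558 for Ccn4) and without M6 (0.0554 and 0.0647), and that of Tnfrsf19 also without M2 (0.0780).

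Ccnd1, the cell cycle gene of cyclin D1, had 15.4, 19.3 and 6.36 CPM in the room air libraries, against 30.8, 30.4 and 22.9 CPM in the hypercapnia libraries and did not pass (1.03 ± 0.33, edgeR adjusted p = 0.194). Its log2 fold change was 0.69 ± 0.21 without M3 and 0.34 ± 0.25 with the mean level of endothelial markers as a covariate. Wif1, a secreted Wnt inhibitor, had a log2 fold change of 0.98 ± 0.47 and did not pass either. The 95% interval of Axin2 on the log2 scale, from -0.23 to 0.25, and that of Tnfrsf19, from -1.01 to -0.53, do not meet, and neither do those of Axin2 and Ccn4, from 0.99 to 1.93. Tnfrsf19 and Ccn4 stand in this comparison because they were called, so intervals far from 0 follow from that choice. A test of the difference between genes was not run.

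**Figure D4:**
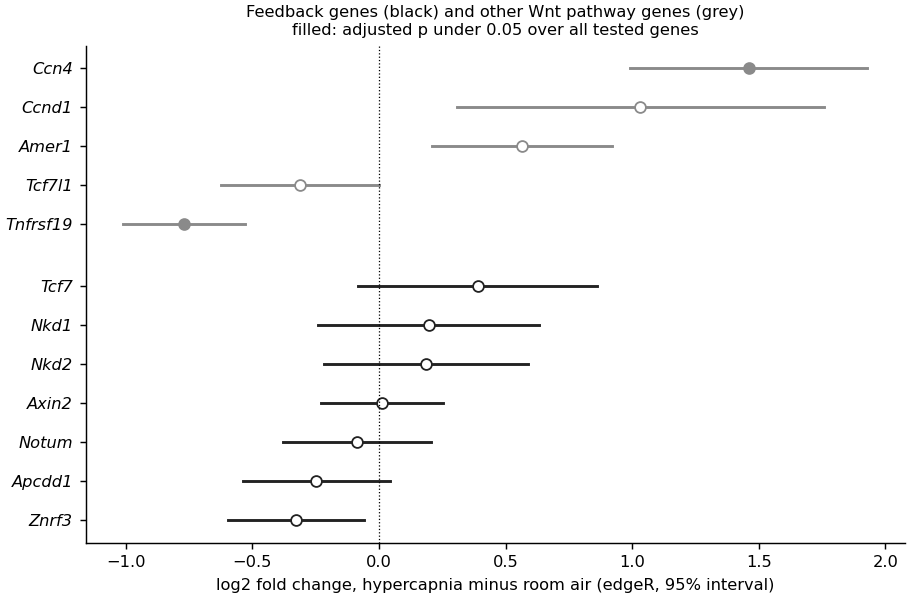
Log2 fold change of hypercapnia against room air with its 95% interval from edgeR for the 7 tested members (black) and 5 other pathway genes (grey), filled where the adjusted p over all genes is under 0.05. The intervals of the members lie between -0.60 and 0.86 with no filled point, and Ccn4 (1.46) and Tnfrsf19 (-0.77) are the filled points.

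The fibroblast label was checked against marker genes in the same libraries, which held 8999780 to 10198336 counts each. Pdgfra had 3556 ± 208 CPM under room air, against 2966 ± 419 under hypercapnia, and Col1a1 had 5069 ± 285 and 4933 ± 478 CPM (SD, n = 3). Of 8 fibroblast markers 4 were positive and 4 negative on the log2 scale (median 0.02), and 0 passed by edgeR (2 at an unadjusted p under 0.05). They ran from -0.44 for Tcf21, a transcription factor of alveolar fibroblasts whose groups did not overlap (edgeR adjusted p = 0.101), to 0.33 for Dcn, which encodes decorin. Of 7 tested smooth muscle and pericyte markers 3 were positive and 4 negative (median -0.10). All 4 tested mesothelium markers (median 0.94) and all 4 tested cell cycle genes (median 0.92) were positive. The cell cycle genes summed to 9.19 to 14.4 CPM in room air and 21.0 to 27.8 CPM in hypercapnia. By edgeR 0 genes of these lists passed. Of 12 leukocyte markers 6 had 0 counts in all libraries, among them the T cell genes Cd3e, Cd3g and Cd8a, and Ptprc had 2 counts in all. Lyz2, the only leukocyte marker that was tested and the gene of a lysozyme, was between 10.1 and 58.6 CPM in the libraries and made up most of that list's sum of 10.3 to 58.9 CPM. Lymphocytes are known to express Tcf7 and Lef1, and the part of other cells in their counts was not tested. The 10 epithelial markers summed to between 397 and 668 CPM in room air and between 353 and 479 CPM in hypercapnia. Scgb1a1 (126 to 488 CPM, log2 fold change -0.70) and Sftpc (48.9 to 189 CPM, 0.56) made up most of that sum. Epcam was at most 2.24 CPM in a library. Of the 10, 4 were positive and 6 negative, and 0 passed by edgeR.

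Endothelial marker levels varied between the libraries together with some members. All 12 endothelial markers were tested and all log2 fold changes were above 0, with a median of 0.88 and 0 past the threshold by edgeR. At an unadjusted edgeR p under 0.05 there were 7, where 12.0% of all tested genes fell. In 4 of the 12 the groups did not overlap, all higher in hypercapnia, where 18.0% of all tested genes did not overlap. The markers summed to between 473 and 1830 CPM in room air and between 1720 and 2827 CPM in hypercapnia, ranges that overlap. Pecam1, a junction protein of endothelial cells, averaged 168 ± 100 CPM under room air, against 308 ± 81.6 under hypercapnia (SD, n = 3). None was at 0 in any library. On the log2 CPM scale their mean level was 6.73, 6.45 and 4.92 for M1 to M3, against 7.41, 7.08 and 6.68 for M4 to M6. Nkd1 followed that order in both groups, highest in M1 and M4 and lowest in M3 and M6. Tcf7 followed it in room air, where M3 was lowest, but in hypercapnia it was highest in M6, the library with the lowest endothelial level of that group.

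With the endothelial level as a covariate, the log2 fold change of Nkd1 went from 0.20 to -0.23 ± 0.15 (SE) and that of Tcf7 from 0.39 to 0.09 ± 0.23. Nkd2 went from 0.19 to 0.017 ± 0.22, Znrf3 from -0.33 to -0.47 ± 0.14 and Apcdd1 from -0.25 to -0.26 ± 0.17. No member passed by edgeR in that fit, where the adjusted p of Znrf3 was 0.125. The endothelial level ran from 4.92 to 6.73 in room air and from 6.68 to 7.41 in hypercapnia. These ranges barely meet, so the fit could separate group and endothelial level only in part. In bulk RNA, fewer cells of a type and less RNA per cell cannot be told apart.

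**Figure D5:**
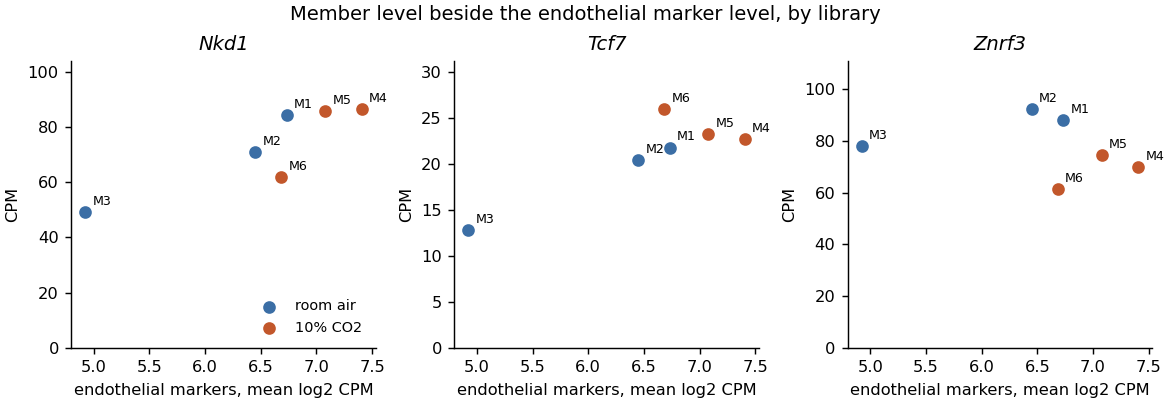
CPM of Nkd1, Tcf7 and Znrf3 in each library (M1 to M6) against the mean log2 CPM of 12 endothelial markers, with room air in blue and 10% CO2 in orange. M3 has the lowest endothelial level (4.92) and the lowest Nkd1 and Tcf7, and Znrf3 in M4 to M6 lies below all room air libraries.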

How the data were processed

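RNA-seq was made from 6 pooled libraries of sorted mouse lung fibroblasts. The authors deposited raw counts per Ensembl gene ID, without normalization. The submitters' processing notes name the mm10 build and the tools TopHat2 2.1.0, HTSeq, FastQC and bcl2fastq 2.17.1.14, but no order. Annotation release, read filter and strand setting were not given in the sources used here. Column names carry the group but match no sample title, so columns were assigned to groups only. Positions and exon lengths came from GENCODE M21 (same build), which named 42546 of 43430 IDs, with Tle5 and Tbxt matched through older symbols. Promoter sequences came from RefSeq (GRCm38.p6).

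Counts were fitted with edgeR 4.0.16 (R 4.3.3), a two-sided quasi-likelihood F-test with the group as the only term, TMM factors (0.943 to 1.05), filterByExpr by group with a minimum count of 10, and Benjamini-Hochberg adjustment over all 13005 tested genes. An adjusted p under 0.05 is called changed. The SE is the log2 fold change divided by the square root of F. Intervals use the fit's moderated degrees of freedom. The fit was checked on simulated data. Alternatives used limma 3.58.1 and DESeq2 1.42.0. No 2 libraries agreed within sampling noise (chi-square per degree of freedom at least 13.0). The members, gene lists and tests were chosen with earlier results of these data known. Named genes are all members, every called gene and up to 4 genes with the smallest p in each of 3 pathway lists, 5 checks of the sort, and the 3 genes most like Axin2 and the member with the smallest p. Other pathway genes given for comparison, such as Axin1, Ctnnb1 and Tcf7l2, were chosen after their values were seen.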

Additional observations from a re-analysis of the deposited data

How the results depend on the processing

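Across 14 alternatives (RLE or no scaling factors, no filter or a minimum count of 30, DESeq2, limma-voom, robust dispersion, the endothelial covariate and leaving out each library in turn), 0 members were called. Nkd2, Znrf3, Tcf7, Apcdd1 and Notum kept the sign of their log2 fold change in all 14, with Znrf3 between -0.47 and -0.26, Tcf7 between 0.09 and 0.53, Apcdd1 between -0.31 and -0.16, Nkd2 between 0.017 and 0.39 and Notum between -0.13 and -0.023. With a library left out Axin2 ran from -0.059 (without M5) to 0.060 (without M6) and was also negative without M1 (-0.0021) and M2 (-0.0044), and its highest value over all 14 was 0.074, without scaling factors. Nkd1, which ran from -0.23 to 0.38, and Dvl1 changed sign with the endothelial covariate (-0.23 and 0.0058), and the cause was not tested. The count of all called genes, 159, was 756 with no filter, 426 by DESeq2 and 255 with robust dispersion, and 24 to 148 with a library left out. Called genes among the other pathway genes, 2 in all, ran from 0 to 2 with a library left out. Ccnd1 was called with no filter (adjusted p = 0.000189) and by DESeq2 (0.0478) and had an adjusted p of up to 0.576 elsewhere, with the covariate, and Apc2 was called with the endothelial covariate (1.03, adjusted p = 0.0157). No paired analysis was possible because the columns carry no numbers shared between the groups. With 3 libraries per group, differences as small as those of Axin2 and Notum were not detectable. Larger ones, such as Amer1 at 1.48-fold and Ccnd1 at 2.05-fold, did not pass in the main fit either. A member that was not called is therefore not shown to be unchanged. Lef1, Rnf43 and Sp5 failed the filter on low counts and were not called in the fit without it.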
